A study of Mus musculus with 10 samples.

Results

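Endothelial cells of the embryonic mouse pancreas, the cells that line its blood and lymphatic vessels, were described across 3 embryonic stages in droplet-based single-cell RNA-seq. They were selected on their own transcripts. A cell was counted as endothelial if it had at least 200 genes detected and at least 1 unique molecular identifier (UMI, the tag that marks 1 captured mRNA molecule) in 4 or more of the 8 genes Pecam1, Cdh5, Kdr, Esam, Egfl7, Plvap, Cldn5 and Emcn, had no UMI of the epithelial gene Epcam, and had under 30% of its UMIs in the haemoglobin genes Hba-a1, Hba-a2, Hbb-bt, Hbb-bs and Hbb-y. The rule found 704 cells among 57982. Because these values chose the members, the 8 genes and the contrast of endothelial with other cells are given as a description and were not tested.

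Swiss Webster embryos were taken on 3 embryonic days (E12.5, E14.5, E17.5). Their pancreata were dissociated in TrypLE for 10, 15 and 30 minutes in that order, so dissociation time and stage cannot be told apart. The version 1 kit (v1, kit 1 in the plots) was used on all live cells of 1 library at E12.5, 2 batches at E14.5 and 1 library at E17.5. Batch 1 held an E14.5 library alone, and the v1 libraries of E12.5 and E17.5 belong with the second E14.5 library to batch 2, collected on another day. The version 2 kit (v2, kit 2) was used on live CD140a- cells of 1 library per stage, CD140a being the surface receptor Pdgfra that marks mesenchyme. An E14.5 library was made with the v2 kit from sorted GFP+ and tdTomato+ cells of Fev-Cre;ROSA26mTmG embryos, lines kept on a C57BL/6J background. In these, Cre activity in Fev-expressing endocrine progenitors and their progeny switches a membrane tdTomato reporter to membrane GFP. Each library pooled several embryos of 1 stage, which cannot be told apart in the files, and the 2 wells of the v2 E17.5 library hold the same suspension and were summed. Kit and sort changed together in the Swiss Webster libraries. The v2 stages were each processed on a day of their own, so within v2 stage and day cannot be told apart.

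Endothelial cells hold each other through VE-cadherin (Cdh5), claudin-5 and Esam, respond to VEGF through the receptor Kdr, and in the capillaries of endocrine glands they form pores spanned by the Plvap diaphragm. In the developing pancreas they lie beside the epithelium early and later supply a dense capillary bed to the islets and acini. They are known as a source of signals to pancreatic progenitors. Arterial, venous, capillary, tip and lymphatic endothelium are told apart by further genes, such as Gja4 and Hey1 in arteries, Nr2f2 in veins, Gpihbp1 in capillaries, Esm1 at sprouting tips and Prox1 in lymphatics.

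The libraries held between 17 and 223 endothelial cells. The v1 libraries gave 28 cells at E12.5, 30 and 44 in the 2 batches at E14.5 and 99 at E17.5. The v2 libraries gave 209, 54 and 223 cells over the same stages, the last split as 113 and 110 between its wells, and the Fev-Cre library gave 17. Summed over the endothelial cells of a library, depth ran from 96887 UMIs in v1 E14.5 batch 1 to 2009221 UMIs in v2 E17.5, and the median cell had between 3130 and 8333 UMIs. The v2 libraries at E12.5 and E17.5 therefore carried most of the counts behind the stage comparisons. No cell barcode was shared by endothelial cells of different libraries.

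As a share of all cells that were not haemoglobin-rich, endothelial cells made up 0.647% of the v1 library at E12.5 (exact 95% binomial interval 0.430 to 0.934), 0.867% (0.586 to 1.24) and 1.04% (0.758 to 1.396) of the E14.5 batches, and 4.60% (3.76 to 5.58) at E17.5. In the v2 libraries the share was 1.68% (1.46 to 1.92) at E12.5, 0.610% (0.459 to 0.795) at E14.5 and 2.13% (1.86 to 2.42) at E17.5, and in the Fev-Cre library it was 0.215% (0.125 to 0.344). In both kits E17.5 held the highest share, and the order of E12.5 and E14.5 was not the same in v1 as in v2. These intervals cover counting error only, each kit has 1 library at E12.5 and at E17.5, and the shares also depend on the sort, so no stage difference in share was tested. Of the cells that passed the Epcam and haemoglobin limits, 3 met the rule with exactly 4 of the 8 genes, 71 fell just outside it with 3, and 373 of the 704 members had UMIs in all 8.

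**Figure D1:**
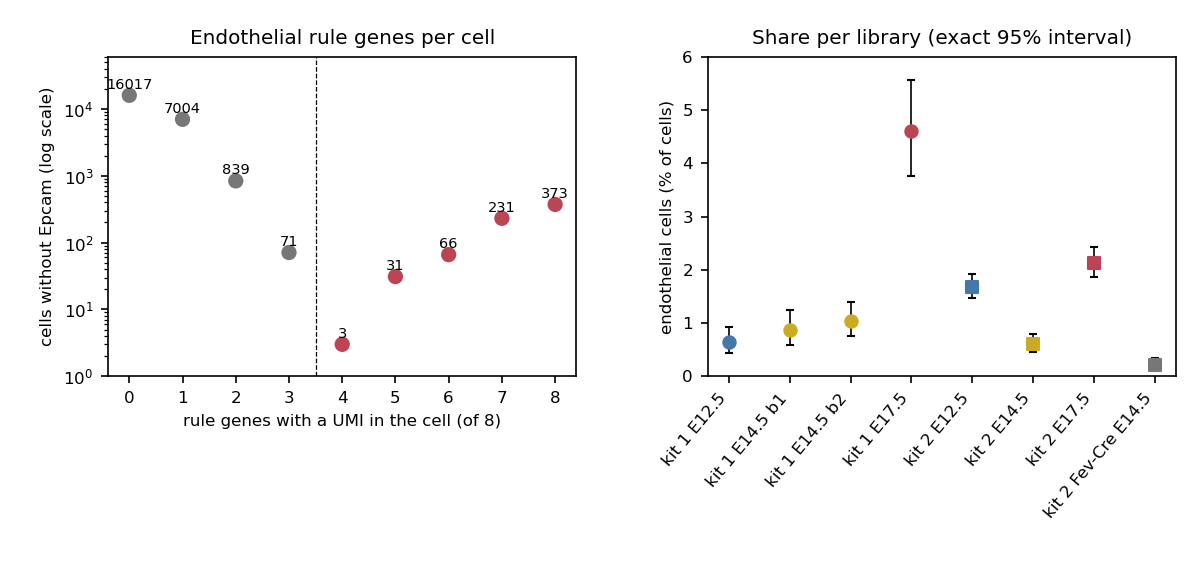
Left, the number of cells by how many of the 8 rule genes had a UMI, on a logarithmic axis, for cells without Epcam and below 30% haemoglobin, with members in red. Right, endothelial cells as a percent of non-haemoglobin-rich cells in each library, with exact 95% binomial intervals. The v1 library at E17.5 (4.60%) stands above the others and the Fev-Cre library (0.215%) below them.

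The 8 rule genes were far above the other cells in all 8 libraries. Levels are CPM, a gene's UMIs scaled to all UMIs of the endothelial cells of a library. Levels in other cells are scaled alike, and those cells include any kept out of the rule for an Epcam UMI alone. Cdh5 stood at 303 to 567 CPM against 0.0521 to 1.51 CPM in the other cells of the same libraries, and Pecam1, an adhesion molecule of endothelial junctions, at 286 to 719 CPM against 0.573 to 4.19 CPM. Kdr, the main VEGF receptor, stood at 209 to 368 CPM, Esam at 461 to 1406 CPM, Cldn5 at 411 to 1402 CPM and the sialomucin Emcn at 360.1 to 897 CPM. Plvap ranged more widely, with 895 CPM at E12.5, 2252 and 1732 CPM at E14.5 and 3009.6 CPM at E17.5 in the v1 libraries, and 824, 1518 and 1607 CPM at the same stages in the v2 libraries. Its level was lowest at E12.5 in both kits. Egfl7, a secreted endothelial factor, had the highest background, at 821 to 2335 CPM in endothelial cells and 32.6 to 102 CPM in the others. All 8 markers were thus present at high level in each library, and Epcam was at 0 by the rule.

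Of the genes the rule did not use, 1634 had 10 or more UMIs in the endothelial sum of each library, and 116 of them (7.1%) were at least 2-fold higher in endothelial than in other cells in all 8 libraries. The 25 with the largest median fold over libraries were Aplnr (298-fold), Fabp4 (298), Sox17 (168), Gimap4 (155), Icam2 (153), Myct1 (145), Flt1 (103), Ctla2a (102), Clec14a (97.6), Tie1 (93.8), Robo4 (78.4), Madcam1 (74.3), Gimap6 (67), Ecscr (65.2), Cd93 (64.7), Gimap5 (61.9), Rasip1 (56.6), Pcdh17 (55.1), Klhl4 (54.4), Col15a1 (53.2), Thsd1 (52.6), Gimap1 (52.4), Lmo2 (50.4), Tmem255a (42.4) and Cd34 (40.1), each fold computed with 1 CPM added to both levels. They include the apelin receptor Aplnr, the VEGF receptor Flt1, the angiopoietin-pathway receptor Tie1 and the guidance receptor Robo4. Among the rest are the transcription factors Sox17 and Lmo2, the small GTPase effector Rasip1, which is needed for vessel lumens, and 4 of the Gimap family of GTPases known from lymphocytes.

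Aplnr (chr2:85136225-85139923, mm10, plus strand) stood at 540.4 CPM at E12.5, 878 and 636 CPM at E14.5 and 672 CPM at E17.5 in the v1 libraries, and 314, 316 and 349.6 CPM at the same stages in the v2 libraries, with 491 CPM in the Fev-Cre library, while in other cells it did not pass 1.26 CPM. It was high in all endothelial sums, and its distance from the other cells is what it was chosen for. Sox17, which is known for roles in arterial endothelium and in definitive endoderm, was at 106 to 372 CPM in endothelial cells and at 0 to 0.653 CPM in the others. Madcam1, the vascular address that lymphocytes bearing the integrin α4β7 bind on vessels of the gut, was at 883 CPM at E12.5, 599 and 674 CPM at E14.5 and 766 CPM at E17.5 in the v1 libraries, and 408, 309.6 and 339.6 CPM at the same stages in the v2 libraries. Madcam1 was present at every stage in both kits. Nkx2-3, a homeobox gene known to be needed for Madcam1 in gut and spleen, stood at 120.1 and 138 CPM at E12.5 (v1 and v2), 103, 155 and 151 CPM at E14.5, and 164 and 209 CPM at E17.5. Neither gene passed the stage test from E12.5 to E17.5 (Madcam1 log2 fold change -0.19, Nkx2-3 0.58).

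**Figure D2:**
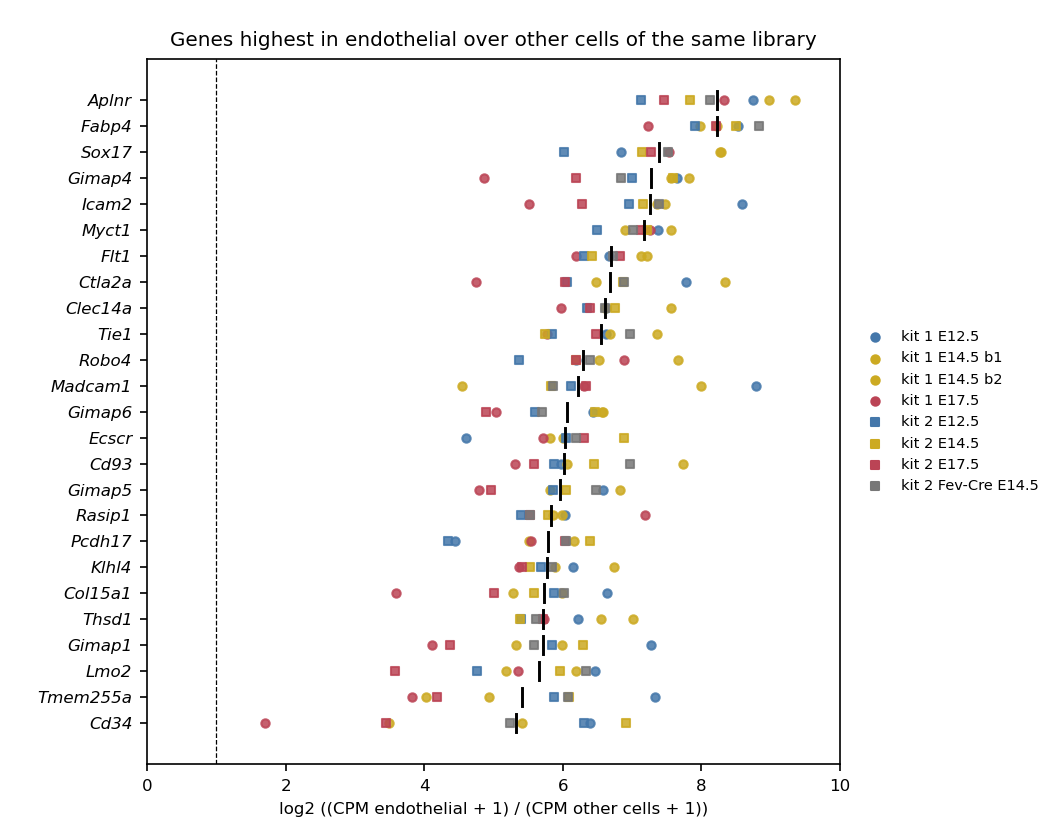
Log2 ratio of endothelial to other cells, with 1 CPM added to both levels, for the 25 genes with the largest median over libraries. Each point is 1 library (circles kit 1, squares kit 2, colour by stage), the black bar is the median and the dashed line marks 2-fold. All points lie beyond 2-fold, and Cd34 at E17.5 comes closest, where other cells of the v1 library hold 306 CPM.

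Promoters were searched in RefSeq's GRCm38.p6 windows, from 250 bases before to 50 after a gene's start, for the letters CAGGAAG and CCGGAAG on both strands. These letters are cores of the sites that ETS-family factors are known to bind. Windows were used for 18 of the 25 genes above, 7 of the 12 stage genes named further on that rose and 4 of the 8 rule genes. None of these windows belonged to the stage genes that fell. CAGGAAG was in 6 of the 19 windows of the first set, 2 of 10 of the second and 3 of 6 of the third, and CCGGAAG was in none of them. Over all 32851 windows 13.3% held CAGGAAG, 8.86% held CCGGAAG and 20.9% held at least 1 of them. A match is a description of the letters and not a binding site. Shown are windows of a gene of the endothelial set (Robo4, chr9:37401722-37402021, plus strand) and of both stage genes with a match (C1qtnf9, chr14:60767884-60768183, plus strand, and Fbln5, chr12:101819070-101819369, minus strand), 5′ to 3′ along the gene's strand, with the match or its reverse complement in capitals.
Robo4: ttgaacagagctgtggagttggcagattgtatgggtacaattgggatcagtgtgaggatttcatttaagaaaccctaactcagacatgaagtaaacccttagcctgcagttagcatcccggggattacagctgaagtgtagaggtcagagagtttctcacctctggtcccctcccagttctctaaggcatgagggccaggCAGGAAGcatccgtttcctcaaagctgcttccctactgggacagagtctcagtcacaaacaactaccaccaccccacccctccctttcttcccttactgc
C1qtnf9: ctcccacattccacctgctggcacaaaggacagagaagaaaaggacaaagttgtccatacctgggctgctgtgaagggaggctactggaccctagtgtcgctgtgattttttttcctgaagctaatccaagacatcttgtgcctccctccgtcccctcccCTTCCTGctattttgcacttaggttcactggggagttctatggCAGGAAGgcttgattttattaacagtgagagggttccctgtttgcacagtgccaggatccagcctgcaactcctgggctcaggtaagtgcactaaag
Fbln5: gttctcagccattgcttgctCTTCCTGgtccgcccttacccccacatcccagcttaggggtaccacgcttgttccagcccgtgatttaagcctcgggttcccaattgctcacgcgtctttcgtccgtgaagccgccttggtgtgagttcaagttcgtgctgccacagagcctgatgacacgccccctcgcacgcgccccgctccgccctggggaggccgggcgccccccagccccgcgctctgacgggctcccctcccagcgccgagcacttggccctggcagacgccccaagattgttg

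Between E12.5 and E17.5 the endothelial cells gained transcripts of 7 of 8 tested capillary genes (among them Gpihbp1, Fabp4, Aqp1 and Cd36), of the extracellular proteins Fbln5, Fbln2 and Igfbp7, and of 5 of 9 tested MHC and interferon genes. They lost transcripts of Crmp1, Plac1, Rasgrp2 and Asb4, and of genes that were not 2-fold above other cells at E12.5 in both kits, such as Mdk. On UMI sums over the endothelial cells of each of the 7 Swiss Webster libraries, edgeR's quasi-likelihood test, with kit as a term and Benjamini-Hochberg adjustment, tested 4936 genes. It called 132 genes higher at E17.5 (2.67%) and 40 lower (0.81%), at an adjusted p below 0.05 and a change of at least 2-fold. The median change over all genes tested was a log2 fold change of -0.02. The p-values measure the spread between these libraries. Of the 132, 72 moved the same way in both kits and had E17.5 levels 2-fold or more over other cells in both, and of the 40, 4 did so at E12.5. The total of 172 fell to 26 without the kit term, to 109 in DESeq2, to 51 without the v2 E12.5 library and to 67 without the v2 E17.5 library. DESeq2 shared 82 of the genes called higher and 22 of those called lower. The total was 232 without v1 E14.5 batch 1, the library collected apart from the other v1 libraries, and kit as a term does not separate that batch. It was 151 when the 63 cells that also carried immune, mesenchymal or mesothelial markers were left out.

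Gpihbp1 (chr15:75596628-75599481, mm10, plus strand), which anchors lipoprotein lipase to the capillary surface, stood at 42 CPM at E12.5, 299.6 and 188 CPM at E14.5 and 912 CPM at E17.5 in the v1 libraries, and 65.8, 394 and 522 CPM at the same stages in the v2 libraries. All E17.5 values lay above all E14.5 values of the same kit, which lay above E12.5, and other cells did not pass 3.77 CPM. The gene rose (log2 fold change 3.65, SE 0.42, adjusted p = 0.000202). Fabp4 (chr3:10204088-10208576, minus strand), a fatty acid-binding protein, went from 522 through 651 and 1309.5 to 4210.5 CPM over the v1 stages and from 915 through 979 to 4446 CPM over the v2 stages, and it rose (log2 fold change 2.64, SE 0.41, adjusted p = 0.00201). Its 2 values at E17.5 lay above all 5 at earlier stages.

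The list of capillary genes held 13 genes. Kdr and Plvap among them were rule genes and were not tested, and others missed the filter on low counts. Of the 8 tested, at a median log2 fold change of 2.80 against -0.02 for all genes, 7 rose. Besides Gpihbp1 and Fabp4 these were Aqp1, Cd36, Rgcc, Sparcl1 and Cd300lg. Aqp1 (chr6:55336432-55348555, plus strand), a water channel, was at 42 and 30.7 CPM at E12.5 (v1 and v2), 155, 176 and 74 CPM at E14.5, and 479 and 675 CPM at E17.5, and its E17.5 levels were above every earlier one (log2 fold change 4.13, SE 0.40, adjusted p = 4.85e-05). Cd36, a fatty acid transporter, was at 108 and 148 CPM at E12.5 and 295 and 359.5 CPM at E17.5 in v1 and v2 (log2 fold change 1.4, adjusted p = 0.0166). Rgcc, a regulator of the cell cycle, was at 144 and 68 CPM at E12.5 and 1066 and 501 CPM at E17.5 (log2 fold change 2.96, adjusted p = 0.000206). Cd300lg, a mucin-like adhesion molecule, had 2 UMIs in all at E12.5 and 115 at E17.5. The ratio of pooled CPM was 48.0 with an exact 95% counting interval of 13 to 401. With 2 UMIs at E12.5, the gene passed the filter on low counts through its later libraries. The remaining tested member, Igfbp3, had a log2 fold change of -0.36 and did not pass.

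The list of lipid transport genes, with 8 of 15 tested at a median of 1.53, added no further call, since its 4 called genes (Gpihbp1, Cd36, Fabp4 and Aqp1) are capillary genes already given. Rbp7, a retinol-binding protein, went from 6.0 through 20.7 and 4.18 to 143 CPM over the v1 stages and from 6.13 through 90.9 to 143 CPM over the v2 stages (log2 fold change 4.86, SE 0.67, adjusted p = 0.000657), and v1 E14.5 batch 2 was as low as E12.5. Of 9 caveola and fenestra genes 8 were tested and 4 rose: Cav1 (log2 fold change 1.93), Cav2 (1.55), Ptrf (1.47) and Sdpr (1.78), all components of caveolae, 2 of them called by DESeq2. Cav1 itself was at 486 and 332 CPM at E12.5 (v1 and v2), 1023, 887 and 508 CPM at E14.5, and 1663 and 1327 CPM at E17.5, higher at E17.5 than at any earlier stage. Plvap belongs to the same structures but was part of the rule and was not tested.

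**Figure D3:**
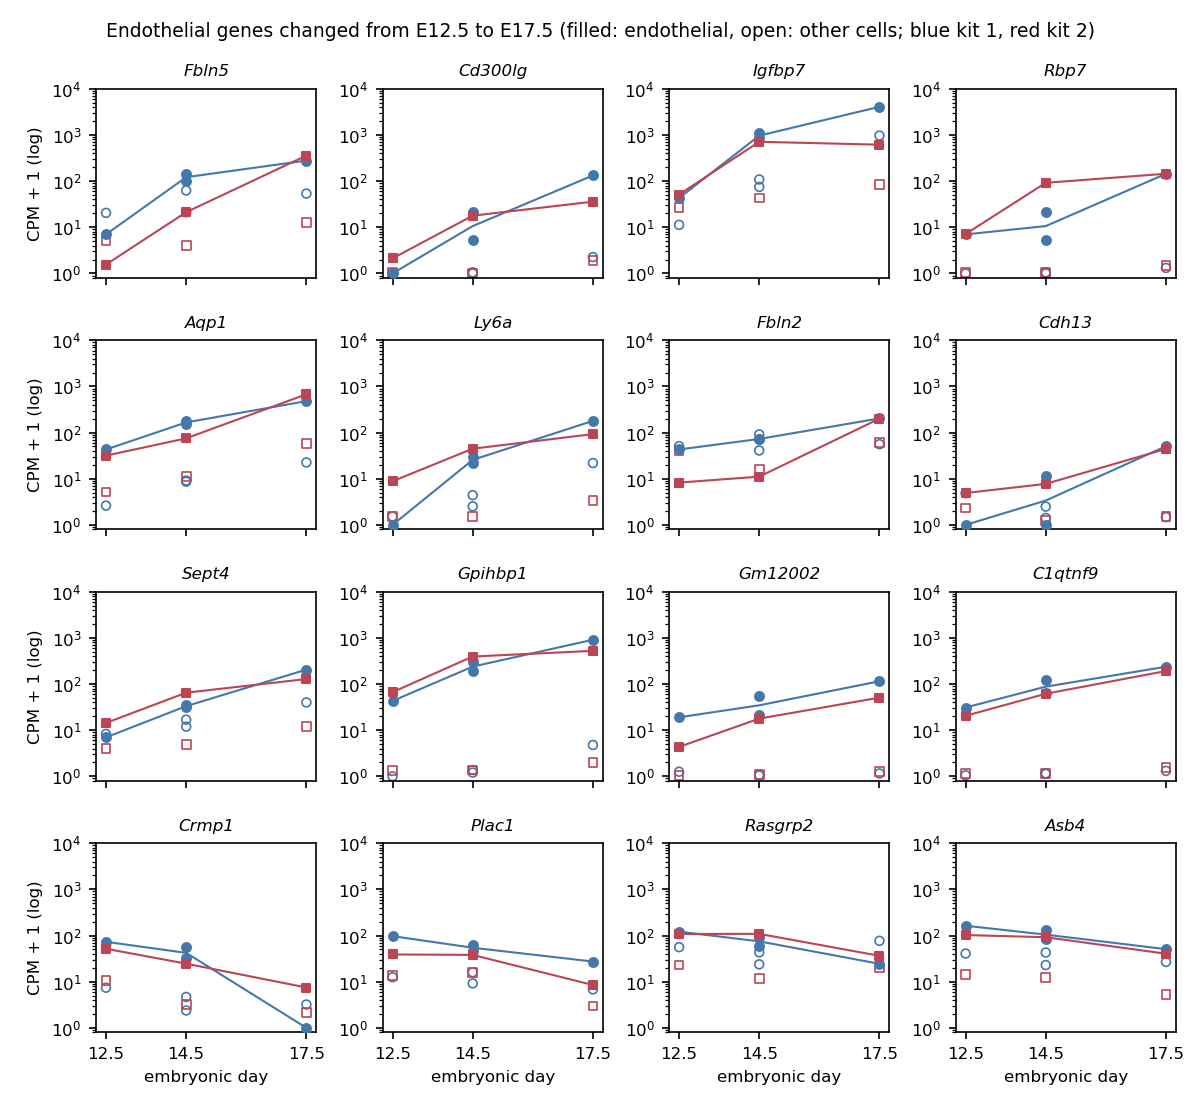
Level in CPM plus 1, on a logarithmic axis, against embryonic day for the 12 named genes that rose and the 4 that fell. Filled points are endothelial sums and open points other cells of the same library, blue circles are kit 1 and red squares kit 2, and lines join the mean log level per stage. Gpihbp1 and Aqp1 climb through all 3 stages in both kits, and Igfbp7 climbs through all 3 in kit 1 and is at 710.2 and 614 CPM at E14.5 and E17.5 in kit 2.

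Several genes of extracellular proteins rose from low levels at E12.5. Fbln5 (chr12:101746565-101819055, minus strand), which assembles elastic fibres, was at 6.0 CPM at E12.5, 145 and 100.4 CPM at E14.5 and 278 CPM at E17.5 in the v1 libraries, and 0.557, 20.2 and 357 CPM at the same stages in the v2 libraries. It had 1 UMI in each E12.5 library and passed the filter on low counts through its later libraries. The pooled counts were 2 UMIs at E12.5 against 811 at E17.5, a ratio of 338 with a counting interval of 93.4 to 2799 (fitted log2 fold change 7.92, SE 0.77, adjusted p = 4.85e-05). Fbln2, a related matrix protein, went from 42 through 72.3 and 71.1 to 202 CPM over the v1 stages and from 7.25 through 10.1 to 199 CPM over the v2 stages (log2 fold change 3.91, SE 0.53, adjusted p = 0.00062). Both genes were highest at E17.5 in each kit. In other cells Fbln5 reached 61.6 CPM and Fbln2 90.2 CPM.

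Eln, the elastin gene, was at 18 and 2.79 CPM at E12.5 and 134 and 352 CPM at E17.5 (log2 fold change 5.94, SE 0.76, adjusted p = 0.000406). Mgp, a matrix Gla protein that inhibits calcification, had 3 UMIs at E12.5 and 478 at E17.5, a ratio of 133 with a counting interval of 45.2 to 647. Eln in v1 was lower in endothelial cells at E17.5 (134 CPM) than in other cells (252 CPM), and so was Mgp (38 against 73.7 CPM), so both fall outside the 72 genes. Igfbp7 (chr5:77349240-77408041, minus strand), a secreted binding protein of insulin-like growth factors, was at 42 CPM at E12.5, 847 and 1096 CPM at E14.5 and 4076 CPM at E17.5 in the v1 libraries, and 50.2, 710.2 and 614 CPM at the same stages in the v2 libraries, with 213 CPM in Fev-Cre cells. Its E12.5 values lay below every later value, Fev-Cre included, and the gene rose (log2 fold change 5.04, SE 0.61, adjusted p = 0.000268). Of 15 basement membrane genes 13 were tested and 2 rose, Col4a1 (log2 fold change 1.67), a chain of type IV collagen, and Sparc (1.32), at a median of 0.53. Over all genes tested 2.67% were called higher.

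Other genes that rose and were endothelial by level have more varied roles. C1qtnf9 (chr14:60768134-60780869, plus strand), a secreted protein of the C1q and TNF family, went from 30.02 through 62 and 121 to 237 CPM over the v1 stages and from 19.5 through 60.6 to 191 CPM over the v2 stages (log2 fold change 3.20, SE 0.35, adjusted p = 0.000157) and was below 1 CPM in other cells throughout. Sept4, a septin, was at 6.0 and 13.4 CPM at E12.5 (v1 and v2), 31, 33.5 and 63.9 CPM at E14.5, and 205 and 127 CPM at E17.5 (log2 fold change 3.70, SE 0.45, adjusted p = 0.000286). Cdh13, a GPI-anchored cadherin, was at 0 and 3.90 CPM at E12.5 and 49.7 and 43.3 CPM at E17.5 (log2 fold change 3.73, SE 0.76, adjusted p = 0.0131). The gene model Gm12002 was at 18 and 3.34 CPM at E12.5 and 114 and 49.8 CPM at E17.5 (log2 fold change 3.48, SE 0.52, adjusted p = 0.00138). Of the 12 named genes that rose, 7 (Aqp1, C1qtnf9, Fbln5, Gpihbp1, Igfbp7, Ly6a and Sept4) passed in every alternative and with each library left out, while Cdh13 passed in 4 of 7 such omissions and Gm12002 in 5.

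Surface antigens of the Ly6 family and genes of antigen presentation rose as well. Ly6a (Sca-1), a marker of endothelial and stem cells in adult mice, was at 0 CPM at E12.5, 20.7 and 29.3 CPM at E14.5 and 178 CPM at E17.5 in the v1 libraries, and 7.80, 43.8 and 91.6 CPM at the same stages in the v2 libraries (log2 fold change 4.10, SE 0.54, adjusted p = 0.000542), and its E17.5 values lay above all earlier ones. Ly6c1 (log2 fold change 2.74, adjusted p = 0.000181) and Ly6e (2.45, adjusted p = 0.00207) complete the 3 called among 10 tested of 13 leukocyte adhesion and surface genes. Of 14 MHC and interferon genes 9 were tested and 5 rose, at a median of 1.38: the class I genes H2-K1 (1.38) and H2-D1 (1.35), the immunoproteasome subunit Psmb8 (2.72), Ifitm3 (1.86) and Ly6e. In other cells H2-K1 went from 12.4 to 198 CPM in v1 and from 20.02 to 151 CPM in v2. That change was larger than in endothelial cells (difference of log2 changes, endothelial minus other, -2.17, adjusted p = 1.32e-10). The same held for H2-D1 (-2.30), while Ly6e changed more upward in endothelial cells (1.32). Over the 14 genes of the list, all tested here, 1 was called upward and 3 downward, the third being Bst2, at a median of -0.28. The other cells pool all other kinds of cell, and markers of those kinds also changed with stage, here and in later comparisons of change.

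Of 26 endothelial transcription factors 23 were tested and 3 rose, Sox18, Meox1 and Meox2, at a median of 0.42 (1 of them by DESeq2), where 2.67% of all genes tested were called higher. Sox18, a SOX factor of developing vessels, was at 150.1 CPM at E12.5, 176 and 109 CPM at E14.5 and 210.4 CPM at E17.5 in the v1 libraries, and 12.3, 16.8 and 89.1 CPM at the same stages in the v2 libraries (log2 fold change 1.80, SE 0.45, adjusted p = 0.042), with lower values at each stage in v2 than in v1. Meox1 went from 36 through 62 and 109 to 228 CPM over the v1 stages and from 16.7 through 47.1 to 164 CPM over the v2 stages (log2 fold change 3.11, SE 0.35, adjusted p = 0.000181). Meox2 went from 36 through 165 and 83.7 to 196 CPM over the v1 stages and from 40.7 through 40.4 to 108 CPM over the v2 stages (log2 fold change 1.67, SE 0.37, adjusted p = 0.02). Both homeobox genes were highest at E17.5 in each kit. Tcf15, the partner of Meox2 in heart endothelium, did not pass (log2 fold change -0.58, SE 0.31, adjusted p = 0.406).

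Genes that mark vessel types moved unevenly. Over all genes tested 2.67% were called higher and 0.81% lower, and 1 or 2 calls in a short list are not read as a result about it. Of 16 arterial genes 7 were tested and 2 rose, Fbln5 and the vasoconstrictor Edn1, which was at 36 and 69.7 CPM at E12.5 (v1 and v2), 72.3, 92 and 94.2 CPM at E14.5, and 237 and 209 CPM at E17.5 (log2 fold change 1.92, adjusted p = 0.00242). The Notch ligand Dll4 had a log2 fold change of 1.26 with SE 0.52 and did not pass. Of 16 Notch pathway genes 7 were tested and 2 rose, the target Hes1 (1.87) and the glycosyltransferase Lfng (2.42), though Hes1 was lower in endothelial than in other cells in every Swiss Webster library. Of 10 venous genes 8 were tested, at a median of 0.01, and only Cpe, a peptidase also made by endocrine cells, was called (2.05), with fewer transcripts in endothelial than in other cells and no call by DESeq2. Nr2f2, the venous nuclear receptor, was at 126 and 109 CPM at E12.5 (v1 and v2), 10.3, 37.7 and 63.9 CPM at E14.5, and 32.1 and 107 CPM at E17.5 and did not pass (adjusted p = 0.537). Of 12 tip-cell genes 7 were tested and Col4a1 and Mcam (1.75) rose. Of 9 lymphatic genes 4 were tested and the chemokine Ccl21a was called (2.98), with UMIs in v2 libraries only and no call by DESeq2.

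Of 18 VEGF and angiopoietin genes 12 were tested and 1 rose, Flt1, at 132 and 148 CPM at E12.5 (v1 and v2), 217, 226 and 104 CPM at E14.5, and 348 and 350.0 CPM at E17.5 (log2 fold change 1.29, SE 0.31, adjusted p = 0.0306), which DESeq2 did not call. Over all genes tested 2.67% were called higher, and 1 call here is not read as a result about the list. Of 15 BMP and TGFβ genes 11 were tested and 4 rose, at a median of 0.76: the receptors Eng (1.54) and Acvrl1 (1.58), the inhibitor Smad7 (1.77, not called by DESeq2) and the target Id1 (1.86). Id1 was at 78.1 and 140.4 CPM at E12.5 (v1 and v2), 124, 272 and 135 CPM at E14.5, and 318 and 504 CPM at E17.5 in endothelial cells. In other cells it stood at 187 and 185 CPM at E12.5 and at 70.4 and 48.7 CPM at E17.5. The changes had opposite signs, and their difference passed (3.41, SE 0.29, adjusted p = 1.98e-27).

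Junction genes had 14 of 18 tested and 2 higher, Jam2 (1.98) and again Mcam, which DESeq2 did not call, at a median of 0.60. Haemostasis genes had 9 of 13 tested and 1 higher, Thbd, the thrombin receptor thrombomodulin (1.95, not called by DESeq2). Over all genes tested 2.67% were called higher, and the few calls in these 2 lists are not read as results about them. Of 18 G-protein-coupled and flow-response genes 13 were tested and edgeR and DESeq2 called 0, with 3 at an unadjusted p under 0.05. Of 25 genes for secreted factors known from vessels 12 were tested, 3 rose (Edn1, Ctgf, 1.86, and Cyr61, 1.89) and 1 fell (Igf1, -1.48). Lists of endocardial (6 genes) and haemogenic genes (8) had no member past the filter on low counts.

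**Figure D4:**
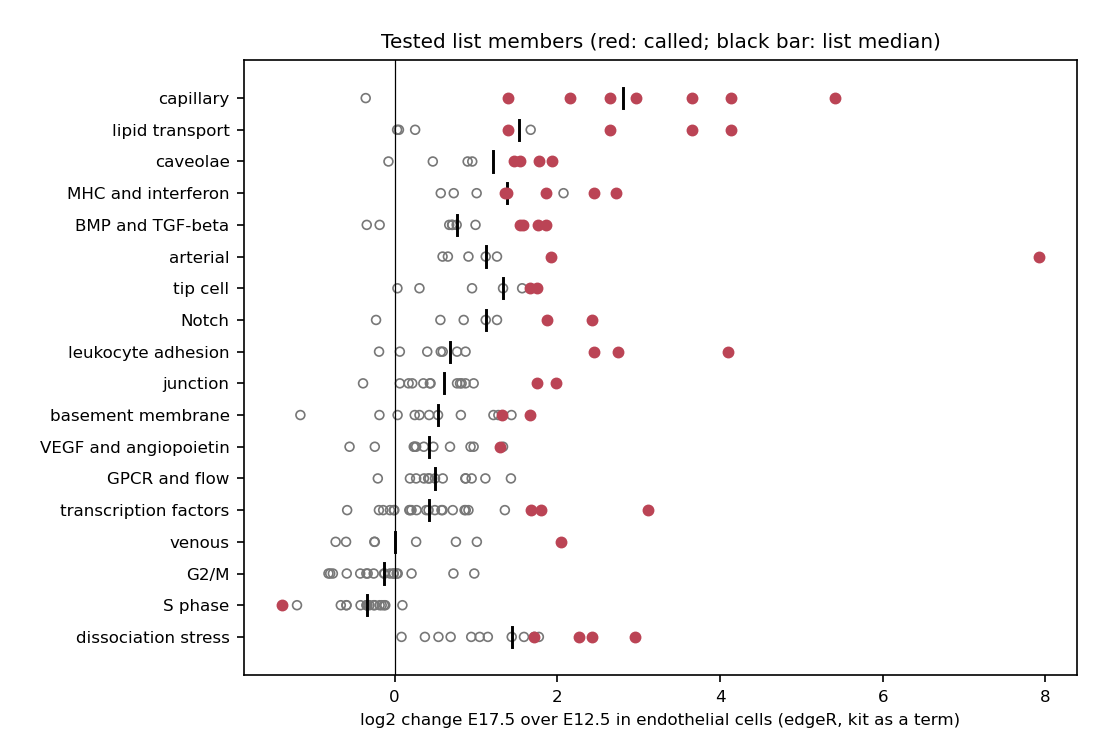
Log2 change from E12.5 to E17.5 in endothelial cells for the tested genes of 18 lists, with 1 point per gene, called genes in red and the list's median as a black bar. The capillary list has the largest median of those drawn (2.80), and the venous list lies at 0.01.

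Of the 40 genes that fell, 16 were at E12.5 no higher in endothelial than in other cells in both kits, and 15 were higher in endothelial cells in both. Mdk, the growth factor midkine, went from 540.4 through 186 and 301 to 67.2 CPM over the v1 stages and from 337 through 343 to 31.9 CPM over the v2 stages (log2 fold change -3.22, SE 0.38, adjusted p = 0.000249), and other cells held 319.8 to 2625 CPM. The chromatin protein gene Hmga2 (log2 fold change -2.68), the growth-cone gene Gap43 (-2.12), Basp1 (-2.90), Bex2 (-2.86) and Igfbp2 (-2.70) also fell. The 4 that fell and were at least 2-fold above other cells at E12.5 were Crmp1, a neuronal guidance mediator, at 72.1 and 50.7 CPM at E12.5 (v1 and v2), 31, 54.4 and 23.6 CPM at E14.5, and 0 and 6.47 CPM at E17.5 (log2 fold change -3.33, SE 0.61, adjusted p = 0.00657), Plac1, Rasgrp2 and Asb4. Plac1 was at 96.1 and 37.9 CPM at E12.5 and 26.3 and 7.47 CPM at E17.5 (log2 fold change -2.09, SE 0.46, adjusted p = 0.0189) and passed in 4 of the 7 omissions of a library and 6 of 9 other settings. Rasgrp2, an activator of the small GTPase Rap1, was at 120.1 and 107 CPM at E12.5 (v1 and v2), 93, 58.6 and 108 CPM at E14.5, and 23.4 and 35.4 CPM at E17.5 (log2 fold change -1.79, SE 0.35, adjusted p = 0.00909), and its E17.5 values lay below all others. Asb4, a ubiquitin ligase subunit known from embryonic vessels, was at 162 and 101 CPM at E12.5 (v1 and v2), 82.6, 129.7 and 90.9 CPM at E14.5, and 49.7 and 39.3 CPM at E17.5 (log2 fold change -1.45, SE 0.31, adjusted p = 0.0174) and passed in 3 of the 7 omissions of a library.

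Cell-cycle genes gave 1 call, where 0.81% of all genes tested were called lower. Of 18 S-phase genes 17 were tested and 1 fell, Gins2 (-1.38, not called by DESeq2), at a median of -0.33, and of 20 G2/M genes 18 were tested and edgeR and DESeq2 called 0, with 4 at an unadjusted p under 0.05 and a median of -0.13. With each cell thinned to 2000 UMIs, cells with UMIs in 2 or more of 6 proliferation genes made up 25% (7 of 28), 42.3% (11 of 26), 25% (11 of 44) and 12.6% (12 of 95) over the v1 E12.5, E14.5 batch 1, batch 2 and E17.5 libraries. In v2 they made up 29.7% (62 of 209), 20.4% (11 of 54) and 17.49% (39 of 223). The E17.5 share was the lowest in each kit, while the E14.5 share was above that at E12.5 in 1 v1 batch and below it in v2. The exact 95% interval at E17.5 was 6.70 to 21.0% in v1 and 12.7 to 23.1% in v2. Within its kit it overlapped those of v1 E12.5 (10.7 to 44.9%), v1 E14.5 batch 2 (13.2 to 40.3%) and v2 E14.5 (10.6 to 33.5%). It lay below those of v1 E14.5 batch 1 (23.4 to 63.1%) and v2 E12.5 (23.6 to 36.4%). No stage difference in these shares was tested. Without thinning the shares were 42.9%, 40%, 36.4% and 15.2% in v1 and 49.3%, 40.7% and 29.6% in v2. The 4 cells left out as shallower than 2000 UMIs in each of v1 E14.5 batch 1 and v1 E17.5 were the only ones. Of 14 imprinted genes 13 were tested and 1 fell, Nnat (-1.79, not called by DESeq2), again a single call that is not read as a result about the list.

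Markers of other cells moved with stage in the endothelial sums, and their part in the stage results was not tested. Ins2 went from 0 through 20.7 and 16.7 to 43.8 CPM over the v1 stages and from 1.11 through 114 to 627 CPM over the v2 stages in endothelial cells. Other cells held 2.87 and 14.4 CPM at E12.5 and 10268 and 32918 CPM at E17.5. Ins1, Ins2, the acinar genes Ctrb1 (6.64) and Clps, which DESeq2 did not call, and the mesenchymal proteoglycan gene Dcn (4.22) are among the 132 genes and fall outside the 72. Summed over 8 endocrine markers the endothelial level was 0.482% to 6.68% of that in other cells, and over 10 acinar markers 1.11% to 8.18%. It was over 8 immune markers 1.84% to 55.0% and over 8 mesenchymal markers 2.48% to 135%, the last in the CD140a-depleted E14.5 library. Over 8 mural markers it was 0.82% to 87.1%. Over 8 erythroid markers it was 12.3% to 466%, and their summed level in endothelial cells was 462 and 1178 CPM at E12.5 (v1 and v2) and 9146 and 8318 CPM at E17.5, while Slc4a1 was at 0 in all 8 libraries. Pdgfra itself was at 0 in the endothelial sums of 5 of the 8 libraries. Of 16 genes known to respond to dissociation 15 were tested and 4 rose (Fos 2.42, Egr1 1.71, Ier3 2.27 and Hspa1a 2.96, the last not called by DESeq2), at a median of 1.44. The summed level of the 16 was 2816, 7593, 6719 and 9365 CPM over the v1 libraries and 4180.5, 8394 and 5125 CPM over the v2 libraries, lowest at E12.5 in each kit. That was 76.7% to 169.8% of the level in other cells.

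Few genes were called between E12.5 and E14.5. The E14.5 sums came from 30, 44 and 54 cells, so few calls do not show that few genes changed. The same fit called 10 genes higher (0.203%) and 0 lower (0%), with 388 genes at an unadjusted p under 0.05. DESeq2 called 7 higher and 1 lower, of which 4 are among the 10. The 10 were Igfbp7 (log2 fold change 3.70), Fbln5 (5.52), Gpihbp1 (2.26), Rgcc (2.19), the kinase gene Sgk1 (2.00), Gm525, Egr1 (2.09), the MHC class II chaperone Cd74, Ins1 and Ins2. Sgk1 was at 72.1 and 80.3 CPM at E12.5 (v1 and v2), 434, 393 and 339.9 CPM at E14.5, and 725 and 276 CPM at E17.5 (adjusted p = 0.03), and its E12.5 values were below all later ones. The count was 0 without the kit term and 3 with the Fev-Cre library added to E14.5, and no single library could be left out without moving it by over 1.5 times. It was 20 without v1 E12.5 (13 higher, 7 lower), 3 without v2 E12.5 (2 and 1), 17 without v1 E14.5 batch 1 (17 and 0), 28 without batch 2 (15 and 13), 2 without v2 E14.5 (2 and 0), 24 without v1 E17.5 (23 and 1) and 22 without v2 E17.5 (21 and 1).

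From E14.5 to E17.5, 24 genes were called higher (0.486%) and 3 lower (0.0608%). Those higher included Fabp4 (log2 fold change 2.20, SE 0.36, adjusted p = 0.0155), Aqp1 (log2 fold change 2.35), Fbln5 (2.40), Fbln2 (2.58), Eln (3.84), Mgp (4.87), Sparcl1 (1.56), Meox1 (1.64), Edn1 (1.41), Ly6c1 (1.44), H2-K1 (1.26), C1qtnf9 (1.54) and Sept4 (1.91). The 3 lower were Mdk (-2.57), Arl4c (-2.13) and Gap43 (-1.79). Igfbp7 (1.33, adjusted p = 0.237) and Rgcc (0.78, adjusted p = 0.279) passed from E12.5 to E14.5 and not in this step, but the 2 steps share the E14.5 libraries and their difference was not tested. The 27 calls fell to 0 without the kit term and without the v2 E14.5 library, to 6 without v2 E17.5, to 13 with cells of 3 or more rule genes and to 17 without suspected doublets. They rose to 45 without v1 E12.5, 47 without v2 E12.5 and 61 without v1 E14.5 batch 2.

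A further test asked whether the change from E12.5 to E17.5 differed between the endothelial and the other cells of the same libraries. Over 13622 genes, 122 changed more upward in endothelial cells (0.896%) and 228 more downward (1.67%), by the edgeR quasi-likelihood test of the interaction with library as a block. Of the 132 genes that rose in endothelial cells 24 did so by more than in other cells and 9 by less, and of the 40 that fell 9 fell by more. These genes were chosen by their change in the same endothelial sums, so the counts are not read as a result about them. Those that rose by more than in other cells included Fbln5 (difference of log2 changes 6.50, adjusted p = 4.19e-21), Fbln2 (3.32), Cdh13 (5.17), Meox1 (2.79), Smad7 (2.90), Rgcc (2.63) and Igfbp7 (1.31). Fbln5 had 2 endothelial UMIs in all at E12.5 and Cdh13 was also scarce there, so their differences rest on few UMIs at that stage. The 350 calls fell to 93 without the v2 E17.5 library, to 106 without v2 E12.5, to 136 without v1 E17.5 and to 228 without v1 E12.5. With kit and stage terms in place of library it called 0 (603 at an unadjusted p under 0.05). The block per library leaves little spread to measure in any single gene. Spread is shared over genes in edgeR, so the small p-values of this difference, here and elsewhere, rest largely on that shared estimate.

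In several of the 25 genes highest over other cells, endothelial levels did not pass the stage test while other cells gained transcripts. Cd34, a sialomucin of endothelial and stromal progenitors, was at 534 and 284 CPM at E12.5 (v1 and v2), 992, 769.8 and 491 CPM at E14.5, and 999 and 480.0 CPM at E17.5 in endothelial cells. In other cells it went from 5.37 to 306 CPM in v1 and from 2.59 to 43.2 CPM in v2 (difference -4.13, SE 0.28, adjusted p = 2.21e-46). Tmem255a (-3.60), the collagen gene Col15a1 (-2.69), Gimap1 (-2.71), Gimap4 (-2.47), Gimap5 (-2.38) and the adhesion gene Icam2 (-2.12) gave the same sign. In the other direction, Nkx2-3 in other cells went from 129 to 38 CPM in v1 and from 16.1 to 4.03 CPM in v2 (difference 2.33, adjusted p = 7.37e-10). Tcf15 gave 3.85 and Foxf1 3.17. The other cells pool all other kinds of cell. Over 8 immune markers their summed level was 101 and 602 CPM at E12.5 and 952 and 1057 CPM at E17.5 (v1 and v2). A change in the mix of other cells and a change within a kind cannot be told apart.

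Within the largest libraries a minority of the endothelial cells fell into clusters with markers of a vessel type, given here as a description because the clusters were made from the same cells. Of 223 cells in v2 E17.5, 13 formed an arterial-like cluster with Gja4 at 2175 CPM against 101 CPM in the rest, the chemokine Cxcl12 at 1041 against 2.08, Hey1 at 748 against 17.7 and Sox17 at 1485 against 118. Gja4 was not limited to it, and stood at 739 CPM against 143 in the lymphatic-like cluster of the same library. That lymphatic-like cluster of 15 cells held Ccl21a at 3461 CPM against 0, the receptor Lyve1 at 918 against 15.1, Mmrn1 at 478 against 2.70 and the transcription factor Prox1 at 299.5 against 7.56. Plvap was at 299.5 CPM in it against 1718. In this cluster 5 of the acinar, 2 of the immune and 5 of the arterial genes were also at least 1.5-fold higher than in the rest. A tip-like cluster of 16 cells held Esm1 at 475 CPM against 23.1, Kcne3 at 332 against 31.5 and adrenomedullin (Adm) at 256 against 28.9, and Gpihbp1 at 1691 against 458. Esm1 and Kcne3 were also higher in a cluster of 29 cells led by Hba-a1, at 146 CPM against 31.1 and 106 against 38.0. All 3 clusters held cells of both wells, at 6 and 7, 4 and 11, and 9 and 7 cells.

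Eln, Mgp and Fbln5 were highest in 1 small cluster. A cluster of 16 cells in v2 E17.5 held Eln at 3617 CPM against 96.6, Mgp at 2827 against 28.5, Fbln5 at 2567 against 184 and von Willebrand factor (Vwf) at 796 against 30.1. It was left unnamed because markers of several kinds were at least 1.5-fold higher in it: 4 of 10 venous genes, with Vwf and the peptidase gene Cpe among its 10 leading genes, 8 of 16 arterial genes, with none there, and the mural gene Acta2, in 4 of the 16 cells. The venous receptor Nr2f2 was at 302 CPM against 91.3. These 16 cells supplied 374 of the 716 Fbln5 UMIs of the library, and each of the other 9 clusters also held some. Gpihbp1 was at 34.3 CPM in them against 560.5 in the rest. A cluster of 25 of the 99 cells in v1 E17.5 was led by like genes, with Fbln5 at 747 CPM against 127, Eln at 458 against 30.9 and Vwf at 289 against 27.0. In the UMI sums, a change in the mix of vessel types and a change within a type cannot be told apart.

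At E12.5 the v2 library of 209 cells held a cluster of 28 cells with both arterial genes (Gja4 at 587 CPM against 28.1, in 14 cells, and Hey1 at 89.1 against 4.37, in 9 cells) and tip genes (Esm1 at 173 CPM against 4.37 and Kcne3 at 142 against 18.1) among its 10 leading genes, which was left unnamed. It also held a lymphatic-like cluster of 10 cells (Ccl21a at 499.9 CPM against 0.598, Prox1 at 156 against 3.59, and the VEGF-C receptor Flt4 at 164 against 19.1). A cluster of 49 cells was led by proliferation genes. Clusters of 20 and 14 cells were led by immune genes and by mesenchymal and mesothelial genes. In the first a minority of cells held the immune genes, with UMIs of C1qa in 6 of 20 cells, of Csf1r in 5 and of Pf4 in 7, while Col1a2 was in 12 of the 14 cells of the second. The second had a median of 11687 UMIs a cell and the lymphatic-like cluster one of 12854, both above the library's 7470.0, and in the lymphatic-like cluster 4 of the epithelial and 2 of the acinar markers were also at least 1.5-fold higher than in the rest. Clusters led by acinar genes (22 cells) and by S100a6, Lsp1, Ctsc and Dlk1 (22 cells) were found in v2 E17.5, with medians of 6510.5 and 6482 UMIs against 8333. A further 29 cells there were led by the haemoglobin gene Hba-a1 (10561 CPM against 1952), followed by the tip gene Esm1. In v1 E17.5 a cluster of 8 cells was led by Dlk1 and the mesenchymal genes Dcn, Col1a2 and Col3a1.

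**Figure D5:**
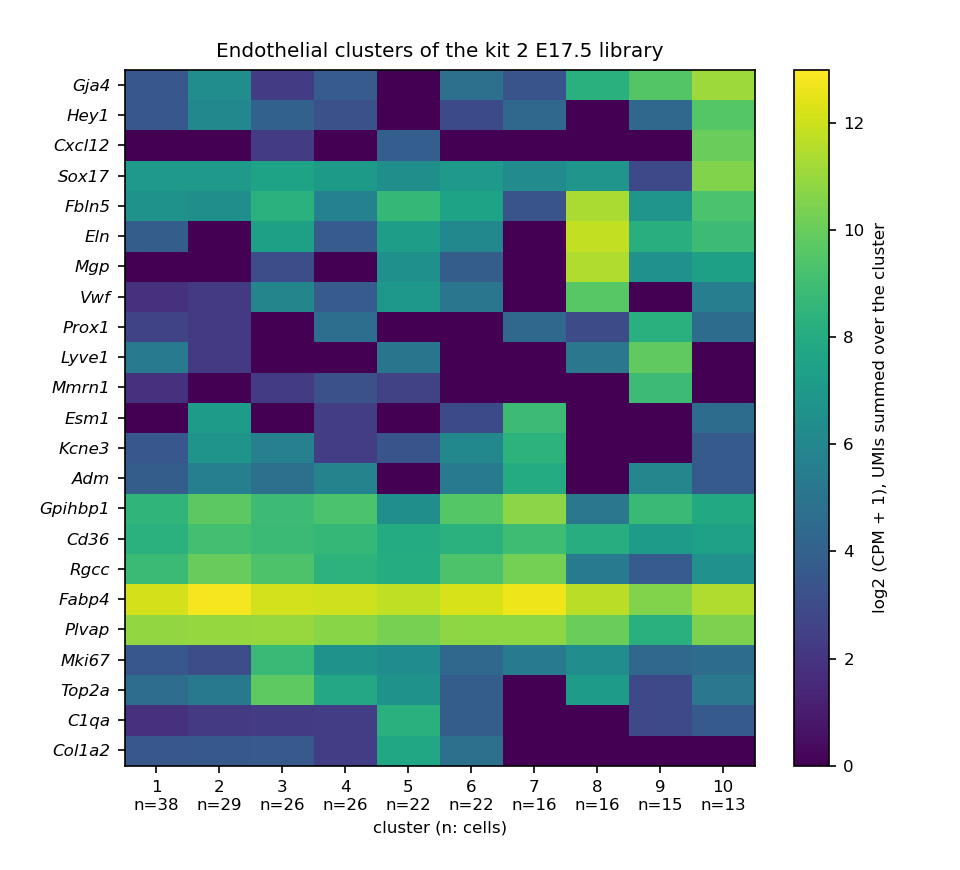
Level of 23 genes, as log2 of CPM plus 1, in the 10 clusters of endothelial cells of the v2 E17.5 library, with n the cells in each cluster. Cluster 10 is brightest for Gja4, Hey1 and Cxcl12, cluster 9 for Prox1, Lyve1 and Mmrn1, cluster 7 for Esm1, Kcne3 and Adm, and cluster 8 for Eln, Mgp and Vwf.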

How the data were processed

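UMI counts per gene and cell were deposited by the authors as filtered matrices. Per the submitters' processing notes they were made with Cell Ranger 1.1 (v1 kit) and 2.1 (v2 kit) on mm10. Cells with 200 or more genes were kept, and of the Fev-Cre library only the matrix aligned with reporter transcripts was used. The other deposited alignment of the same cells was not used here. Mitochondrial genes had no counts in the v1 matrices. Depth was 96887 to 2009221 UMIs per endothelial sum, and intervals (exact 95% binomial) cover counting error only.

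The members, the gene lists and the tests were chosen with earlier results of these data known. UMIs were summed over endothelial cells and over other cells of each library, leaving haemoglobin-rich cells out of both. The other cells include those with 4 or more rule genes and an Epcam UMI. Stage contrasts were tested with edgeR 4.0.16 (TMM, filterByExpr, quasi-likelihood F-test, kit as a block and stage as a factor) on the 7 Swiss Webster libraries, after dropping the rule genes, with Benjamini-Hochberg adjustment over all genes tested and calls at adjusted p below 0.05 and at least 2-fold. The Fev-Cre library had under 20 members and stayed out. The interaction of class and stage was fitted with library as a block, since both sums come from 1 suspension. After stage means were removed, sums of the same library correlated at r = 0.493 to 0.762 over 1831 genes, against at most 0.555 between libraries, and all 7 were closest to their own. DESeq2 1.42.0 was an alternative.

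Named genes were the 25 with the largest median log2 ratio to other cells (1 CPM added, 10 or more UMIs in each library), and in each direction up to 12 called genes with the largest change that moved the same way in both kits and were 2-fold above other cells at their higher stage in both kits. Members of 34 lists, some of which share genes, are given by counts, with called members and some others, such as Igfbp3, Dll4 and Nr2f2, named. Genes named outside these rules (such as Nkx2-3, Tcf15, Foxf1, Eln, Mgp, Sgk1, Mdk and the other genes that fell, and genes of clusters) were chosen after their values were seen. Cells were thinned once to 2000 UMIs (seed 1) for shares of cells. Clusters were made within single libraries from 1000 variable genes, 10 principal components and 10 neighbours with leidenalg 0.10.2 at resolution 1. No doublet caller was run, the study's sort had removed doublets by size, and 32 members flagged by markers of other cells were left out as an alternative. Cells with at least 2 of 8 immune, 3 of 8 mesenchymal or 2 of 6 mesothelial genes were left out in a further alternative chosen after seeing the data.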

Additional observations from a re-analysis of the deposited data

Results flagged for a closer look

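The named genes are the 25 highest over other cells, 12 that rose and 4 that fell. In 19 of them the change from E12.5 to E17.5 differed between endothelial and other cells of the same libraries. The test was edgeR's interaction test with Benjamini-Hochberg adjustment. Over all 13622 genes tested, 122 (0.896%) differed upward and 228 (1.67%) downward. The named genes were chosen partly by their level against these same other cells, so their count is not read as a result about them. The values are differences of log2 changes, endothelial minus other cells. The change was larger upward in endothelial cells for Fbln5 (6.50) and Cdh13 (5.17), both scarce at E12.5, and for Fbln2 (3.32), Sox17 (2.12), Pcdh17 (1.73) and Igfbp7 (1.31). It was lower for Cd34 (-4.13), Tmem255a (-3.60), Gimap1 (-2.71), Col15a1 (-2.69), Gimap4 (-2.47), Gimap5 (-2.38), Icam2 (-2.12), Rasgrp2 (-1.98), Ctla2a (-1.70), Lmo2 (-1.44), Gimap6 (-1.31), Madcam1 (-1.09) and Fabp4 (-1.04). Rasgrp2 and Fabp4 also passed the stage test in endothelial cells, Rasgrp2 falling and Fabp4 rising, and other cells of the v1 library went from 0.417 to 27 CPM of Fabp4. Sox17 was at or below 0.653 CPM in other cells, so its difference rests on few UMIs there, and it turned to -0.25 without v2 E12.5 and to -0.96 without v2 E17.5.

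A reporter transcript outside the main measurement was counted too. In the Fev-Cre library the lineage reporter eGFP was at 45.2 CPM in the endothelial cells, from 7 UMIs in 7 of 17 cells (41.2%, exact 95% interval 18.4 to 67.1), against 539 CPM in other cells, of which 46.6% had eGFP, and 1623 CPM in cells with 3 or more UMIs of the endocrine gene Chga, of which 96.3% had it. Median depth was 7437 UMIs in endothelial, 7749 UMIs in other and 7714 UMIs in the Chga cells. The other cells include the Chga cells and further GFP+ cells that the sort collected, so their share is not a background level for the endothelial cells. The 7 endothelial UMIs are not read as expression, and their source was not tested. The tdTomato transcript was at 12.9 CPM (2 of 17 cells) and at 9.86 CPM in other cells (9.07% of cells).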

How the results depend on the processing

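Numbers of genes called for a stage change kept within 1.5 times of the values given under DESeq2's size factors and with 5 or more rule genes. With no filter on low counts the calls were 357 from E12.5 to E17.5, 58 from E12.5 to E14.5 and 121 from E14.5 to E17.5. DESeq2 called 109 from E12.5 to E17.5. Without the replicate block for kit the calls were 26, 0 and 0, and the difference from other cells, with kit and stage terms in place of the library block, was called in 0 genes. With the Fev-Cre library added to E14.5 the calls were 113 from E12.5 to E17.5 and 3 from E12.5 to E14.5. From E14.5 to E17.5 there were 13 with cells of 3 or more rule genes and 17 without suspected doublets. With each library left out in turn the ranges were 51 to 232 (E12.5 to E17.5), 2 to 28 (E12.5 to E14.5), 0 to 61 (E14.5 to E17.5) and 93 to 378 (difference from other cells). The description of genes 2-fold above other cells stayed within 1.5 times of 116 under every alternative run. The cause of these shifts was not tested.

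Reversed signs came without 1 v2 library. Without v2 E12.5, the log2 change from E12.5 to E17.5 was -0.12 for Gm10320 (-0.12 to 4.27 over the 7 omissions), and the difference from other cells was -0.25 for Sox17 and -0.60 for Eln (-0.60 to 3.33). Without v2 E17.5, the change was -1.78 for Clps (-1.78 to 4.24) and -0.32 for Pnliprp1 (-0.32 to 6.70), and the difference was -0.96 for Sox17 (-0.96 to 2.53) and -1.65 for Ccl21a (-1.65 to 3.72). Leaving out cells under 2000 UMIs and thinning the rest to 2000 moved the endothelial share of v1 E17.5 to 5.66%. That was 96 of 1697 cells, against 99 of 2151 before, so the total fell more than the members. Counting cells with 3 rule genes moved the share of v2 E17.5 to 2.42%. The same settings moved the share of the Fev-Cre library from 0.215% (17 cells) to 0.317% (25) and 0.291% (23), within its counting interval. Thinning can add members, because it can remove a cell's Epcam UMIs.

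Each kit had 1 library at E12.5 and 1 at E17.5, so the spread behind the tests comes from few libraries, and kit and sort cannot be told apart. The v1 sums held 96887 to 342408 UMIs, at which a gene of 10 CPM has few UMIs, and genes missed by the low-count filter were not tested. Genes scarce at E12.5, such as Cd300lg, Fbln5 and Mgp, passed that filter through later libraries.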

Other observations

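The endothelial cells of the Fev-Cre library, which entered no stage test, held 1790.4 CPM of Fabp4, 246 CPM of Gpihbp1, 213 CPM of Igfbp7 and 194 CPM of Aqp1, with 0 UMIs of Rbp7 and Mgp. A count of 0 in 154802 UMIs allows up to 19.4 CPM. Against the 3 Swiss Webster libraries of the same stage, Fabp4 lay above all of them (651, 1310 and 979 CPM) and Igfbp7 below all of them (847, 1096 and 710.2 CPM). With 17 cells of another strain and sort these values stand without a test.

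Cells met at least 4 rule genes but were kept out for an Epcam UMI in 107 cases and for haemoglobin in 28. The Epcam cases stayed in the sums of other cells and add to the levels of endothelial genes there, by an amount that was not tested. The haemoglobin cases were in neither sum. By library the Epcam cases numbered 0, 1, 1 and 3 in v1 and 43, 17 and 30 in v2, with 12 in the Fev-Cre library.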
